A study of Homo sapiens with 8 samples.

Results

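Genes for CD antigens (numbered cell surface molecules), Siglecs, Fc receptor-like proteins and SLAM family receptors were examined on 8 arrays from the human plasma cell tumour (multiple myeloma) lines KMS11, KMS18, KMS34 and OPM2. They were chosen by symbol (CD with a number and at most 1 letter from A to E, SIGLEC with a number, FCRL, FCER or FCGR, LILRA or LILRB, SLAMF with a number), without CD7, CD40 and CD53, and each gene was taken from the row with its highest mean. The rule gave 79 of the 14812 genes with a named row: 57 CD antigens, 10 Siglecs, 7 FCRL genes and 5 SLAMF genes. Its FCER or FCGR and LILRA or LILRB patterns had 0 members here. In each line, 1 culture received lentivirus with an shRNA against MMSET I, a short form of NSD2 (a histone methyltransferase), and 1 was the control, for which the labels name no vector. Virus was added with 8 µg/mL polybrene, and RNA was taken 48 h after the medium had been replaced; the series text instead gives 72 h with shRNA and names KMS11 alone. All 4 lines, controls included, carry the t(4;14) translocation per the labels, so no line without it was compared. Each line was 1 culture per condition, and nothing in the labels says whether a line is a single clone. Biotin-labelled cDNA was hybridised to Affymetrix Human Gene 2.0 ST arrays, and the values are linear intensities, 1 for each set of probes that reads a transcript.

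Surface antigens of the B lineage change as a B cell becomes a plasma cell: coreceptors of the B cell receptor are lost, and CD38, CD27 and SLAMF7 are typically kept. Myeloma cells often gain others, such as CD28 and CD200, and CD38 and SLAMF7 are targets of therapeutic antibodies. Siglecs bind sialic acids, and many of them, like several FCRL and SLAM family receptors, carry inhibitory or switch motifs in their cytoplasmic tails.

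The arrays had nearly equal medians of 49.3 to 53.5 over all rows. Of 7 measured plasma cell genes, 5 were above 120.5, the median intensity of the tested genes, on every array: SDC1 (844 to 1112), IRF4 (2255 to 4673), XBP1 (1266 to 2767), MZB1 (778 to 2394) and DERL3 (138 to 556). POU2AF1 (70.7 to 88.4) lay below it on every array, and CD38 (50.6 to 416) on both sides. Of the T and NK cell, myeloid, and stromal and endothelial markers that were measured (7, 6 and 2 genes), 0 were above 120.5 on every array, and their intensities reached at most 137, 119 and 76.2. Of 3 measured markers of mature B cells, 0 were above 120.5 on every array, but SPIB reached 216 and CR2 229. These B cell markers summed to 243 to 472 on knockdown arrays and 252 to 421 on control arrays. Summed over the list, the T and NK cell markers came to 527 to 626 on knockdown arrays and 488 to 599 on control arrays. The myeloid markers came to 311 to 349 on knockdown arrays and 346 to 354 on control arrays, and the stromal and endothelial markers to 98 to 138 on knockdown arrays and 98 to 112 on control arrays. NSD2, whose row does not separate the short isoform, was lower with the knockdown in 4 of 4 lines by 0.13 to 0.31 log2 units, a mean difference that limma did not call (adjusted p = 0.472).

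Of the 79 genes, 55 passed a brightness filter (a mean at or above an intensity of 46.7, the 25th percentile of named genes) and entered the tests over 11109 genes; 24 did not. Next to that limit were FCRL3 (46.1) and CD226 (46.6) below and CD72 (47.3) and CD2 (48.1) above. Because a gene that is high in 1 line can pass through that line alone, counts over the 55 describe those that passed and not all 79. Of the 55, 8 were above 120.5 on every array, namely CD28, CD47, CD48, CD63, CD151, CD276, CD320 and SLAMF7, 32 were below it on every array and 15 lay on both sides. Probe sets differ in their response, so intensities of different genes are not ranked against each other, and detection calls were not used here.

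The results turn on a few genes, of which CD200, CD99 and CD38 differed widely between lines and CD48 had the largest mean knockdown difference. The 250 bases before the start of these 4 genes, from RefSeq, are shown 5′ to 3′ because they differ in base composition and in the motifs searched. Capitals mark GGGCGG (the GC box), TATAAA (the TATA box) and GGAA followed after 2 bases by GAAA (a composite of ETS and IRF sites), each on either strand.
CD200, GRCh38.p14 chr3:112332906-112333155, plus strand: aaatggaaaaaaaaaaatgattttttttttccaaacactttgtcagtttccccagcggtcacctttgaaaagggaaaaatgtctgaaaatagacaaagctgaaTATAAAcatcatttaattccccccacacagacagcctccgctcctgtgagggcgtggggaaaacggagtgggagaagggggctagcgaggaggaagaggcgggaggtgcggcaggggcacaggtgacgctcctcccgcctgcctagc
CD99, GRCh38.p14 chrX:2691045-2691294, plus strand: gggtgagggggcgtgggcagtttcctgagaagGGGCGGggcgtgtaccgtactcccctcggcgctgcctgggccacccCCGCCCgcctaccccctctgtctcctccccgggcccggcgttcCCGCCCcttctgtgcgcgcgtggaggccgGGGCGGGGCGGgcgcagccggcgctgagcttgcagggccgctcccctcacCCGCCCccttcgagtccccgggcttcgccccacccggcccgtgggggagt
CD38, GRCh38.p14 chr4:15778078-15778327, plus strand: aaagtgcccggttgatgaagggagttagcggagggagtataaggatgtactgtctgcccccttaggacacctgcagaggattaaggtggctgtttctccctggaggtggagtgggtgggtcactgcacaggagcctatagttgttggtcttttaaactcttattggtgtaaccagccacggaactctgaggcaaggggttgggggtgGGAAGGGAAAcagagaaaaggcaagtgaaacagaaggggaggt
CD48, GRCh38.p14 chr1:160711823-160712072, minus strand: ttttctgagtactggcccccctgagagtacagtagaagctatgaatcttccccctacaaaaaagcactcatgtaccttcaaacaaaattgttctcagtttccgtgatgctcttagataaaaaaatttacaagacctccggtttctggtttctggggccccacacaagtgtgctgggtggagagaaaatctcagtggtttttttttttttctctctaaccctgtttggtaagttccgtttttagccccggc
The CD99 stretch holds 6 GC boxes, 2 of which overlap by 1 base, and 28 CpG dinucleotides. The CD200 stretch holds 1 TATAAA and 9 CpG, the CD38 stretch 1 ETS-IRF composite and 3 CpG, and the CD48 stretch none of these motifs and 4 CpG. A match is a description of the letters only.

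Promoters were found by symbol for 63 of the 79 genes, in windows of 300 bases. The median member promoter held 6 CpG dinucleotides, against 14 over the 27305 promoters of the table. A GC box was present in 15 of the 63 (23.8%) and in 44.6% of all promoters, and TATAAA in 3 (CD36, CD83 and CD200, 4.76%) and in 12.0%. The ETS-IRF composite was present in 8 of 63 (12.7%) and in 2.84% of all promoters; the 8 were CD1C, CD1D, CD1E, CD28, CD38, CD68, CD83 and CD96. TGCTGA, part of the element that MAF-type factors bind, was in 11 of 63 (17.5%) and in 17.4% of all promoters, and the cyclic AMP response element TGACGTCA in 0 of 63 and in 1.98%.

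The first comparison asked how the antigens differ between the lines. Large differences were found for a small set: CD200 and CD37 were highest in KMS18, CD70 in KMS34, CD99 and CD109 in KMS11, and CD38 was lowest in KMS11. In limma's moderated F test, 40 of the 55 differed between lines (72.7%), which is close to the 75.7% of all tested genes. Line means at least 2-fold apart were found for 16 of the 55 (29.1%), against 18.8% of all tested genes. By measured means, 6 were at least 4-fold apart (10.9%), against 3.68%. One of the 6, CD109, has line means under the brightness limit, and against that limit its span is at least 3.89-fold, so that 5 are at least 4-fold apart without it. CD9 (3.83-fold) and CD47 (3.86-fold) lay just under 4-fold, and CD109 (5.02-fold by measured means) and CD37 (5.25-fold) above it. The 2 arrays of a line are cultures of different condition, so the spread behind this test is that of the knockdown differences between lines. Without the brightness filter, 43 of the 79 genes differed between lines, against 8812 of all 14812 genes.

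**Figure D1:**
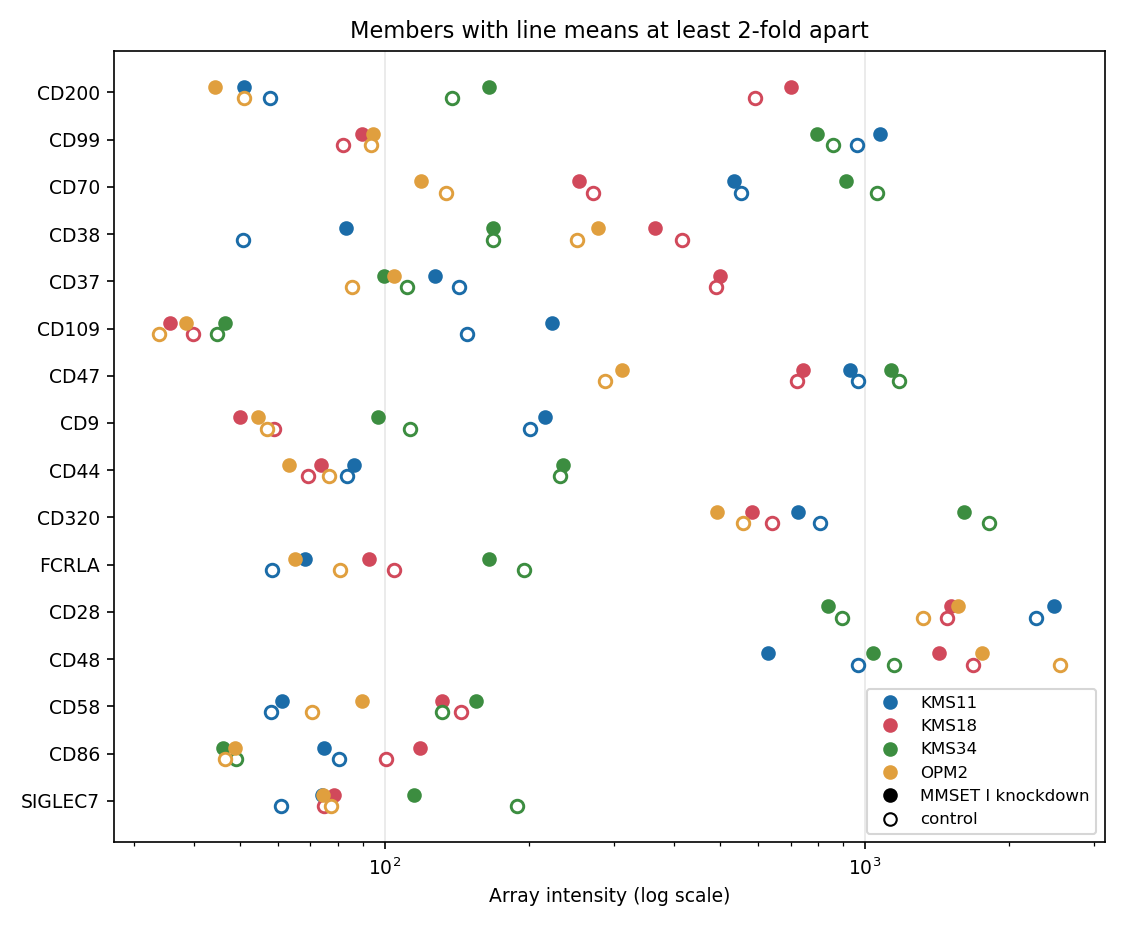
Intensities of the 16 genes whose line means were at least 2-fold apart, on a logarithmic axis. Each point is 1 array, coloured by line, filled for the MMSET I knockdown and open for the control. For CD99 the KMS11 and KMS34 arrays lie at or above 797 and the KMS18 and OPM2 arrays at or below 94.6. For most of these genes the 2 arrays of a line lie close together compared with the spread between lines. This does not hold for SIGLEC7 in KMS34 (115 with the knockdown, 189 in the control) or CD48 in KMS11 (629 and 967).

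CD200, the ligand of an inhibitory receptor on myeloid and T cells, spanned the widest range of the 55. Knockdown arrays had intensities of 703 in KMS18, 165 in KMS34, 51.0 in KMS11 and 44.2 in OPM2, and control arrays 590 in KMS18, 138 in KMS34, 57.8 in KMS11 and 51.0 in OPM2. KMS18 and KMS34 were thus above the other lines in either condition. The line mean of KMS18 was 13.57-fold that of OPM2 and 4.27-fold that of KMS34 (limma, adjusted p = 3.75e-10 and 5.37e-08), and KMS34 was 2.78-fold above KMS11. KMS11 and OPM2 did not differ beyond their spread (1.14-fold, adjusted p = 0.225). The line mean of OPM2 (47.5) was close to the brightness limit, and the OPM2 knockdown array lay under that limit. KMS11 (line mean 54.3) was not far above it. The 13.57-fold span therefore has a lower end near the limit, where a difference between KMS11 and OPM2 may not be seen. In RNA from whole cultures, fewer cells with a transcript and less of it per cell cannot be told apart.

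CD99, a glycoprotein of leukocyte adhesion and migration, split the lines into pairs. With the knockdown it had 1075 in KMS11 and 797 in KMS34 but 94.6 in OPM2 and 89.5 in KMS18, and control arrays had 964 in KMS11 and 859 in KMS34 but 93.8 in OPM2 and 81.8 in KMS18. No array of one pair came near the other pair. KMS34 was 8.78-fold above OPM2 (adjusted p = 1.89e-10) and KMS11 1.23-fold above KMS34 (0.0206), while OPM2 and KMS18 did not pass (1.10-fold, 0.255).

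CD70, the TNF family ligand of CD27, stood in 4 separate steps. Knockdown arrays had 913 in KMS34, 533 in KMS11, 254 in KMS18 and 119 in OPM2, and control arrays 1062 in KMS34, 552 in KMS11, 272 in KMS18 and 134 in OPM2. Each step passed the pairwise test, at 1.82-fold, 2.07-fold and 2.08-fold, and the whole span was 7.78-fold. The receptor of CD70, CD27, was 67.3 to 86.6 on knockdown arrays and 56.2 to 84.5 on control arrays, below the median of tested genes throughout, and its line means lay 1.33-fold apart (adjusted p = 0.0142). Without KMS18, the log2 range of line means of CD27 did not pass limma's test (adjusted p = 0.162).

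CD38, an ectoenzyme that consumes NAD and a marker of plasma cells, was lowest in KMS11. It had 365 in KMS18, 278 in OPM2, 168 in KMS34 and 83.2 in KMS11 with the knockdown, and in control arrays 416 in KMS18, 251 in OPM2, 168 in KMS34 and 50.6 in KMS11. KMS18 was 6.0-fold above KMS11 over both conditions, and the steps of 1.47-fold, 1.57-fold and 2.59-fold between neighbours in the order each passed. The control array of KMS11 was close to the brightness limit of 46.7.

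Among tetraspanins, which organise other membrane proteins into domains, 6 of 6 genes differed between lines and 2 by at least 2-fold, against 75.7% and 18.8% of all tested genes. CD37, a tetraspanin of leukocytes, had 500 in KMS18, 127 in KMS11, 104 in OPM2 and 99.5 in KMS34 with the knockdown, and 490 in KMS18, 143 in KMS11, 111 in KMS34 and 85.4 in OPM2 in control arrays. KMS18 was 3.67-fold above KMS11 (adjusted p = 6.45e-08), and KMS34 and OPM2 did not differ beyond their spread (1.12-fold, 0.276). CD9 was 1.99-fold higher in KMS11 (line mean 208) than in KMS34 (105), which was 1.88-fold above OPM2 (55.6); OPM2 and KMS18 (54.2) did not pass. CD151, which binds laminin-binding integrins, was lower in KMS11 (line mean 256) than in KMS18 (370), KMS34 (455) and OPM2 (477). CD151 had 480 in OPM2 and 464 in KMS34 as well as 368 in KMS18 and 257 in KMS11 with the knockdown, and 474 in OPM2 and 446 in KMS34 as well as 371 in KMS18 and 255 in KMS11 in control arrays. CD63, a lysosomal tetraspanin, spanned 1.53-fold. CD63 had 555 in KMS34 and 491 in KMS11 as well as 374 in KMS18 and 365 in OPM2 with the knockdown, and 543 in KMS34 and 447 in KMS11 as well as 381 in KMS18 and 351 in OPM2 in control arrays. CD81, a widely expressed tetraspanin, spanned 1.49-fold and CD82 1.57-fold. CD81 had 140 in KMS11 and 144 in OPM2 as well as 105 in KMS18 and 110 in KMS34 with the knockdown, and 178 in KMS11 and 138 in OPM2 as well as 116 in KMS18 and 103 in KMS34 in control arrays.

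CD109, a protein of the alpha-2-macroglobulin family that binds TGF-beta, was high in KMS11 only in 1 of its 2 rows. In the row used, knockdown arrays had 223 in KMS11 but 46.6 in KMS34, 38.6 in OPM2 and 35.8 in KMS18, and control arrays 148 in KMS11 but 44.8 in KMS34, 39.9 in KMS18 and 34.0 in OPM2. Taken against the brightness limit, under which the other 3 line means fell, KMS11 was at least 3.89-fold higher. The second row of CD109 ranged from 50.3 to 68.1 on knockdown arrays and from 47.0 to 63.3 on control arrays, so its 2 rows disagree on the size of the difference. CD177 also had 2 rows, between 56.3 and 83.6 on knockdown arrays and between 55.5 and 83.1 on control arrays.

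Of 12 costimulatory and checkpoint genes fixed for description, 11 were measured and 7 tested. Of the 7, 6 were called between lines, near the 75.7% of all tested genes, and 4 were at least 2-fold apart, against 18.8% of all tested genes, with a median span of 2.30-fold against 1.43-fold over all tested genes. CD28, a costimulatory receptor of T cells that myeloma cells can express, had 2481 in KMS11, 1564 in OPM2, 1510 in KMS18 and 837 in KMS34 with the knockdown, and 2273 in KMS11, 1485 in KMS18, 1318 in OPM2 and 898 in KMS34 in control arrays. KMS11 was 1.59-fold above KMS18 and OPM2 was 1.66-fold above KMS34, while KMS18 and OPM2 did not differ beyond their spread. CD86, a ligand of CD28, was highest in KMS18 (line mean 109), 1.41-fold above KMS11 (77.5), and KMS34 (47.5) and OPM2 (47.7) were just above the brightness limit. CD86 had 118 in KMS18 and 74.7 in KMS11 as well as 48.8 in OPM2 and 46.0 in KMS34 with the knockdown, and 100 in KMS18 and 80.4 in KMS11 as well as 46.5 in OPM2 and 49.0 in KMS34 in control arrays. CD276, an inhibitory ligand also called B7-H3, spanned 1.36-fold, with line means of 243 in KMS11 and 178 in KMS34, and no neighbours in its order differed. The log2 range of line means of CD276 did not pass limma's test without KMS11 (adjusted p = 0.0951) or without KMS34 (0.0723). CD276 had 263 in KMS11 and 197 in OPM2 as well as 189 in KMS18 and 184 in KMS34 with the knockdown, and 224 in KMS11 and 230 in OPM2 as well as 203 in KMS18 and 172 in KMS34 in control arrays. CD80 and CD274, the PD-1 ligand, did not pass the filter; CD274 was between 36.2 and 48.1 on knockdown arrays and between 34.1 and 55.8 on control arrays.

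The group of genes that protect from phagocytosis or mediate adhesion had 6 measured members, 5 of them called and 4 at least 2-fold apart, CD99 among them (median span 2.84-fold), against 75.7% and 18.8% of all tested genes. CD47, which binds SIRPA on macrophages and restrains phagocytosis, had 1133 in KMS34, 931 in KMS11, 742 in KMS18 and 312 in OPM2 with the knockdown, and 1178 in KMS34, 968 in KMS11, 722 in KMS18 and 288 in OPM2 in control arrays. The largest step was to OPM2, with KMS18 2.44-fold above it (adjusted p = 2.12e-07). The smaller steps from KMS34 to KMS11 (1.22-fold) and from KMS11 to KMS18 (1.3-fold) also passed. CD44, the hyaluronan receptor, was 2.75-fold higher in KMS34 (line mean 234) than in KMS11 (84.9), and KMS11, KMS18 and OPM2 did not differ between neighbours. CD44 had 236 in KMS34 and 86.4 in KMS11 as well as 73.7 in KMS18 and 63.2 in OPM2 with the knockdown, and 232 in KMS34 and 83.4 in KMS11 as well as 69.2 in KMS18 and 76.5 in OPM2 in control arrays. CD58, a ligand of CD2, was highest in KMS34 (143) and KMS18 (138), which did not differ, then OPM2 (79.6) and KMS11 (59.5). CD58 had 155 in KMS34 and 132 in KMS18 as well as 89.8 in OPM2 and 61.2 in KMS11 with the knockdown, and 132 in KMS34 and 144 in KMS18 as well as 70.6 in OPM2 and 57.9 in KMS11 in control arrays. CD52, a small GPI-anchored antigen, spanned 1.31-fold.

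CD320, the receptor that takes up vitamin B12 bound to transcobalamin, was 2.23-fold higher in KMS34 (line mean 1707) than in KMS11 (765), with KMS18 at 610 and OPM2 at 524.

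Of the SLAM family genes clustered on chromosome 1, CD48 and SLAMF7 were above the median of tested genes on every array and differed between lines, both being highest in OPM2. In chromosomal order, SLAMF6, CD84 and SLAMF1 lie directly before CD48, with SLAMF7 close behind it. SLAMF6, CD84 and SLAMF1 stayed between 27.9 and 40.3 on knockdown arrays and between 26.5 and 45.3 on control arrays, and did not pass the filter. SLAMF7, the target of elotuzumab, had 1690 in OPM2, 1187 in KMS18, 912 in KMS34 and 855 in KMS11 with the knockdown, and 1498 in OPM2, 1015 in KMS18, 990 in KMS34 and 852 in KMS11 in control arrays. OPM2 was 1.45-fold above KMS18 (adjusted p = 0.000871), and the other neighbours did not pass. CD48, a GPI-anchored ligand of CD244 and CD2, followed the order OPM2 (line mean 2115), KMS18 (1548), KMS34 (1092) and KMS11 (780), and each step passed at 1.37-fold to 1.42-fold. SLAMF8 and SLAMF9, which lie further away on the same chromosome, ranged from 49.1 to 63.9 on knockdown arrays and from 53.6 to 65.9 on control arrays.

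**Figure D2:**
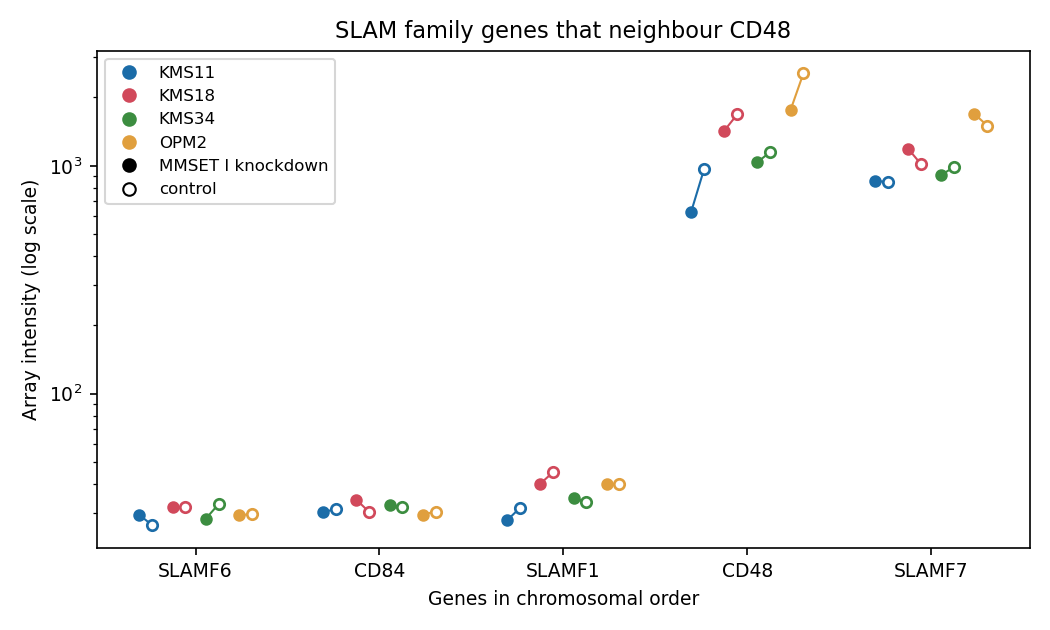
Intensities of SLAM family genes in their order on chromosome 1, on a logarithmic axis. Each stroke joins the knockdown array (filled, left) and the control array (open, right) of 1 cell line; CD48 and SLAMF7 lie at or above 629 on each array and SLAMF6, CD84 and SLAMF1 at or below 45.3, and CD48 is lower with the knockdown in each line.

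Most Siglec genes stayed below the median of tested genes, and KMS34 stood apart for SIGLEC7 and SIGLEC9. Of 9 tested Siglecs, 6 differed between lines and 1 by at least 2-fold, against 75.7% and 18.8% of all tested genes. SIGLEC7, an inhibitory receptor of NK cells, had 115 in KMS34, 78.6 in KMS18, 74.5 in OPM2 and 74.2 in KMS11 with the knockdown, and 189 in KMS34, 77.2 in OPM2, 74.7 in KMS18 and 60.9 in KMS11 in control arrays. SIGLEC9, its neighbour on chromosome 19, was also highest in KMS34, at 62.4 on the knockdown array and 83.3 on the control array. The other lines lay between 41.4 and 46.7 with the knockdown and between 37.4 and 49.9 in controls. These genes are similar in sequence, and a part of cross-hybridisation in this was not tested. The other 8 Siglecs ranged from 29.9 to 108 on knockdown arrays and from 35.2 to 128 on control arrays.

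FCRLA, an intracellular FCRL protein of B cells, was 1.82-fold higher in KMS34 (line mean 179) than in KMS18 (98.5), which was 1.36-fold above OPM2 (72.4). FCRLA had 165 in KMS34 and 92.6 in KMS18 as well as 65.1 in OPM2 and 68.3 in KMS11 with the knockdown, and 195 in KMS34 and 105 in KMS18 as well as 80.5 in OPM2 and 58.4 in KMS11 in control arrays. FCRL1 to FCRL6, of which FCRL1 to FCRL5 are direct neighbours on chromosome 1, were 26.0 to 76.2 on knockdown arrays and 26.5 to 75.9 on control arrays, and FCRL5, an antibody target in myeloma, did not pass the filter (31.6 to 37.9 with the knockdown, 30.6 to 43.8 in controls). Of 10 fixed genes listed for the B cell receptor complex, its coreceptors and other surface genes, 7 were measured. CD72, an inhibitory coreceptor, was highest in KMS11 (68.4 with the knockdown and 55.3 in the control), against 40.7 to 44.9 on the other knockdown arrays and 43.4 to 43.8 on the other control arrays. Taken against the brightness limit, under which the other line means of CD72 fell, its span was at least 1.32-fold. CD83, an activation marker, was 1.35-fold higher in KMS18 (line mean 125) than in KMS34 (92.8). CD22, an inhibitory Siglec of B cells, spanned 1.21-fold (adjusted p = 0.0389), a call that was lost in 14 alternative settings. With quantile normalization, for example, limma's test of the log2 range of line means of CD22 had an adjusted p of 0.103, and with centring on array medians 0.0507. CD24 (22.2 to 23.6 with the knockdown, 22.0 to 24.3 in controls) and CD180 (37.2 to 40.5 with the knockdown, 36.1 to 50.5 in controls) did not pass the filter.

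The tested antigens of T cells and NK cells varied little. Of 7 tested genes of this group, 1 (CD8A, 1.41-fold) differed between lines, against 75.7% of all tested genes, and the median span was 1.18-fold. CD2, CD4, CD5, CD6, CD160 and CD247 did not pass the F test, with spans of 1.07-fold to 1.21-fold, and were below 120.5 on every array. In limma's pairwise contrasts, OPM2 was above KMS34 for CD247 (adjusted p = 0.0406) and KMS18 above KMS11 for CD5 (0.0439). CD8B, CD96 and CD226 of this group were under the brightness filter. In KMS11, CD226 had 77.5 with the knockdown and 59.5 in the control, and its arrays in the other lines had 34.7 to 48.2. Without the filter, the line means of CD226 spanned 0.941 log2 units (limma's F test, adjusted p = 0.000939). Among 8 tested myeloid and endothelial antigens 6 were called, near the 75.7% of all tested genes, and apart from CD109 none of them spanned 2-fold. CD14, CD36, CD69, CD101 and CD163 did not pass the filter and stayed between 22.1 and 41.4 with the knockdown and between 22.4 and 40.7 in controls.

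Lines were then set apart by pairwise contrasts. KMS34 stood above each of the other 3 lines in 8 of the 55 genes (14.5%, against 9.01% of all tested genes), namely CD44, CD47, CD63, CD70, CD320, FCRLA, SIGLEC7 and SIGLEC9. KMS18 did so in 6 (10.9%, against 4.11%), which were CD37, CD38, CD83, CD86, CD200 and SIGLEC6. KMS11 did so in 5 (9.09%, against 12.5%), which were CD9, CD28, CD72, CD99 and CD109, and OPM2 in 2 (3.64%, against 5.63%), CD48 and SLAMF7. CD72 and CD109 had line means under the brightness limit of 46.7 in all lines but KMS11, and SIGLEC9 in KMS11 and KMS18. Their highest line helped these genes pass the filter, so counting them for that line is not independent of it. Of the ways to pair the lines, only KMS11 with KMS34 against KMS18 with OPM2 was counted. Other pairings occurred but were not counted, such as KMS18 and KMS34 above KMS11 and OPM2 for CD200 and CD58. KMS11 and KMS34 were both above KMS18 and OPM2 in 7 genes (12.7%, against 8.05% of all tested genes), CD9, CD47, CD63, CD70, CD82, CD99 and CD320. The reverse held for CD38, CD48 and CD52, 3 genes (5.45%, against 5.13%).

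The second comparison asked what the MMSET I knockdown changed among these antigens. In limma's test with cell line as a block, 0 of the 55 genes passed, as against 13 of all 11109 tested genes (0.117%). At an unadjusted p under 0.05 were 2 of the 55 (3.64%), CD48 and CD320, both lower, against 8.41% of all tested genes. The median log2 difference was 0.0035 over the 55 and -0.0033 over all tested genes, with 25 below and 30 above 0, and the differences ranged from -0.38 to 0.17. The median span between lines, 0.433 log2 units, was larger than the median absolute knockdown difference, 0.0676, but the first is a range over 4 means and the second 1 mean difference.

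**Figure D3:**
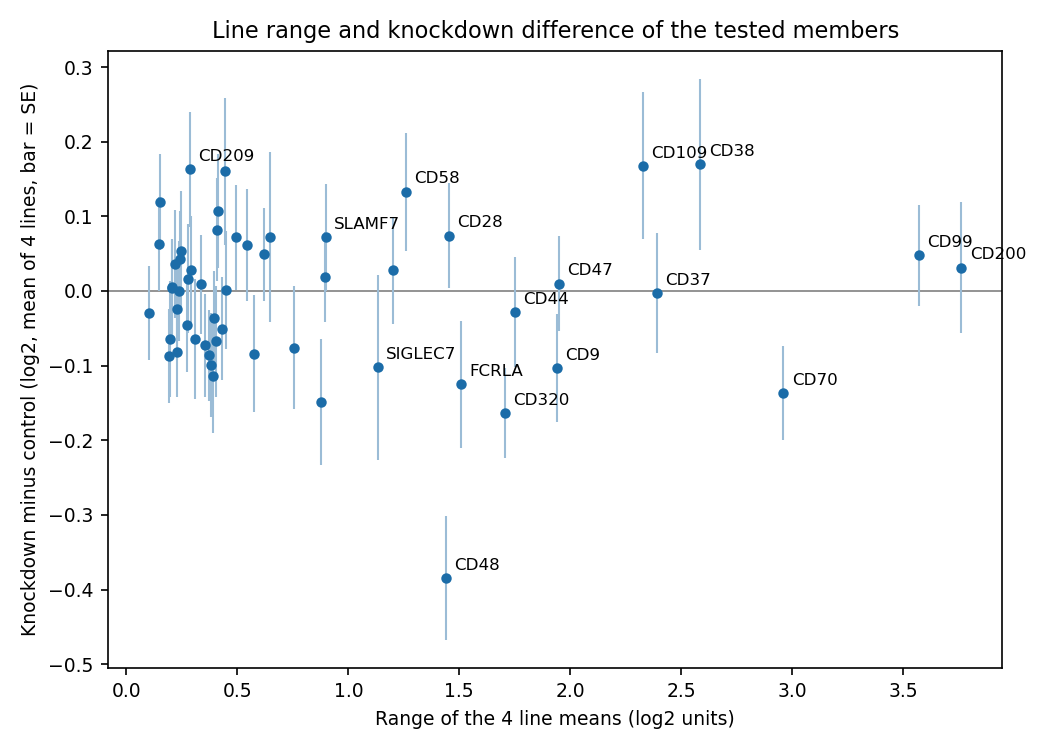
The 55 tested genes by the range of their 4 line means (horizontal axis, log2 units) and their mean knockdown difference (vertical axis, log2, knockdown minus control, bars are standard errors, n = 4 lines). CD48 lies lowest at -0.38, and CD99 and CD200, with the widest ranges, lie near 0.

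CD48 had the largest mean difference of the 55. It had 1757 in OPM2 and 1427 in KMS18 as well as 1038 in KMS34 and 629 in KMS11 with the knockdown, and 2545 in OPM2 and 1680 in KMS18 as well as 1150 in KMS34 and 967 in KMS11 in control arrays. The knockdown array was the lower one in each line, while the ranges of both conditions overlap because the lines differ. The mean log2 difference was -0.38 with a standard error of 0.083 (-23.4%, limma, unadjusted p = 0.000563, adjusted p = 0.203), made up of -0.62 in KMS11, -0.53 in OPM2, -0.24 in KMS18 and -0.15 in KMS34. It thus did not pass the threshold over all genes. With eBayes using a trend and robust estimation it passed (adjusted p = 0.0193). SLAMF7, near it on the chromosome, had a mean difference of 0.07 (adjusted p = 0.819), with 0.23 in KMS18, 0.17 in OPM2, 0.01 in KMS11 and -0.12 in KMS34.

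CD320 had a similar difference in each line. It had 1604 in KMS34 and 726 in KMS11 as well as 581 in KMS18 and 491 in OPM2 with the knockdown, and 1816 in KMS34 and 806 in KMS11 as well as 640 in KMS18 and 558 in OPM2 in control arrays. Each knockdown array was lower than the control of its line, with log2 differences of -0.18 to -0.14. The mean was -0.16 with a standard error of 0.060 (unadjusted p = 0.0187, adjusted p = 0.505). CD70 was likewise lower in 4 of 4 lines, with differences of -0.05 in KMS11 and -0.22 in KMS34 at the ends (mean -0.14, adjusted p = 0.594). In all, 6 of the 55 had the same sign in 4 lines (10.9%, against 17.0% of all tested genes), CD48, CD68, CD70, CD320, FCRL1 and SLAMF8, and each of them was lower.

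**Figure D4:**
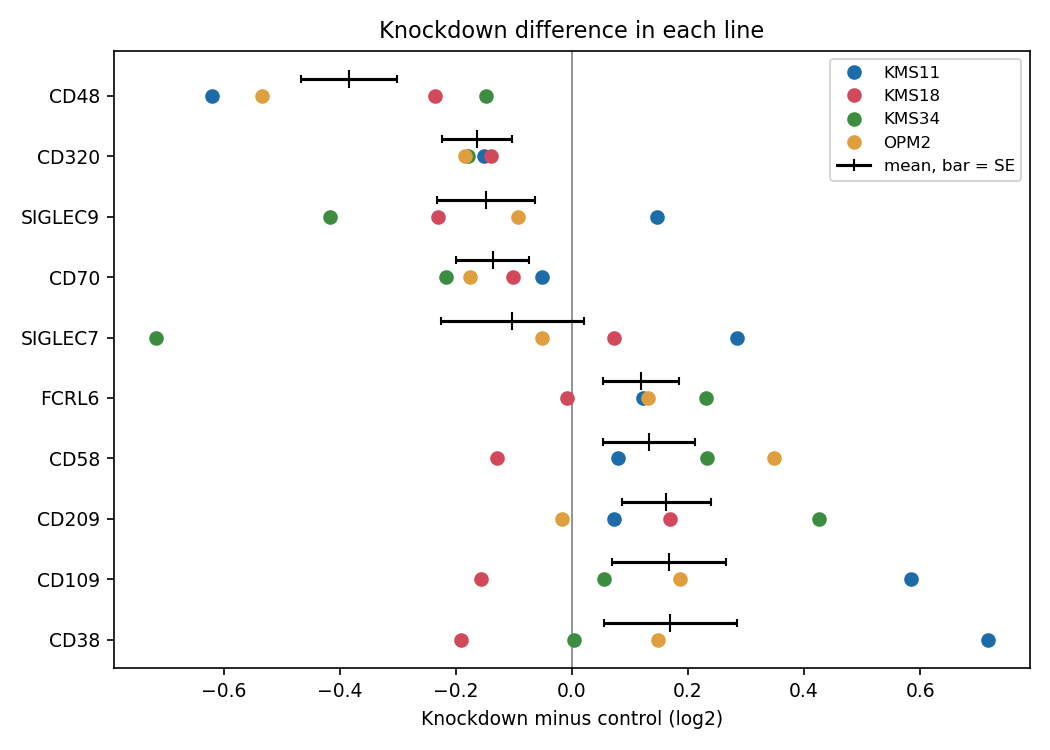
Knockdown minus control in each line (coloured points, log2) for the genes with the smallest unadjusted p in each direction and those with at least a 1.5-fold difference in a line; the black mark is the mean with its standard error (n = 4 lines). CD320 is tightly placed between -0.18 and -0.14, whereas SIGLEC7 lies at -0.72 in KMS34 and 0.285 in KMS11.

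The smallest unadjusted p-values among genes with a higher mean belonged to CD209 (0.16, adjusted p = 0.605), a C-type lectin of dendritic cells, FCRL6 (0.12, 0.667), CD109 (0.17, 0.684) and CD58 (0.13, 0.691). Among those with a lower mean the fourth was SIGLEC9 (-0.15, 0.679). None of these passed. CD209 had 63.2 in KMS34 and 63.0 in OPM2 as well as 59.6 in KMS18 and 53.3 in KMS11 with the knockdown, and 47.0 in KMS34 and 63.7 in OPM2 as well as 53.0 in KMS18 and 50.7 in KMS11 in control arrays. FCRL6 had 76.2 in OPM2 and 75.5 in KMS18 as well as 73.9 in KMS34 and 73.2 in KMS11 with the knockdown, and 69.6 in OPM2 and 75.9 in KMS18 as well as 63.0 in KMS34 and 67.2 in KMS11 in control arrays. CD209, FCRL6 and SIGLEC9 were below the median of tested genes on every array.

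Within a line there is 1 array per condition, so the following differences have no test. At least 1.5-fold in 1 line or more were 3 of the 55 genes (5.45%, against 1.03% of all tested genes). CD38 in KMS11 was 1.64-fold higher, at 83.2 with the knockdown and 50.6 in the control, while its log2 difference was -0.19 in KMS18, 0.00 in KMS34 and 0.15 in OPM2. CD48 in KMS11 was 1.54-fold lower. SIGLEC7 in KMS34 was 1.64-fold lower, at 115 with the knockdown and 189 in the control, and its neighbour SIGLEC9 was 1.335-fold lower in the same line. CD109 in KMS11, at 223 with the knockdown and 148 in the control, was just short of the limit (log2 difference 0.5848). CD200 and CD99, the genes with the widest span between lines, had mean knockdown differences of 0.03 (adjusted p = 0.950) and 0.05 (0.882). CD28, CD47 and CD276 had 0.07, 0.01 and 0.00, with adjusted p-values of 0.807 and above.

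By group, 0 members of any group passed. The groups overlap: CD37 and CD81 are listed both with the B cell receptor genes and with the tetraspanins, and CD160 is listed both with the costimulatory and with the T and NK cell genes. The median difference was -0.0459 for the 5 tested genes listed for the B cell receptor complex, coreceptors and other surface genes (CD22, CD37, CD72, CD81 and CD83). It was 0.0081 for 6 tetraspanins, 0.0277 for 7 costimulatory and checkpoint genes and -0.0268 for 4 SLAM family genes. It was 0.0167 for 7 T and NK cell antigens, 0.0455 for 8 myeloid and endothelial antigens, -0.0091 for 6 genes of adhesion and protection, -0.0676 for 9 Siglecs, -0.0868 for 3 FCRL genes and -0.0993 for CD1D, the 1 tested gene of lipid antigen presentation. Among the Siglecs 7 of 9 had a mean below 0, against 5732 of all 11109 tested genes, and none of the 9 passed. Of the 9, 7 lay below 120.5 on every array. Without the filter, the 24 genes under it had differences from -0.145 (SIGLEC8) to 0.086 (CD8B and CD96), and 0 passed.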

How the data were processed

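Expression was measured on 8 Affymetrix Human Gene 2.0 ST arrays, 4 MMSET I knockdown and 4 control arrays, 1 of each per cell line. The authors deposited linear intensity values analysed in GeneSpring, per the series text; no source used here states their background correction or normalization. Array medians are alike, and if the arrays were scaled to each other a shift of all genes would not be seen. Of 44629 rows, 15835 had 1 symbol in the platform annotation, covering 14812 genes; RefSeq (GRCh38.p14) changed 0 symbols. Each gene took the row with its highest mean. Log2 intensities of the 11109 genes at or above the 25th percentile of the mean were fitted with limma 3.58.1 in R 4.3.3 (lmFit, eBayes), with line and condition as terms. Lines pair the arrays, per the labels. Adjusted p-values are Benjamini-Hochberg over all tested genes (pairwise line contrasts: over genes and 6 contrasts together), with a threshold of 0.05. With 4 lines, an exact permutation within lines cannot go below p = 0.125 and was not run. The number of arrays limits the precision, and p-values measure the spread between these cultures, which may be technical. The fits were also run on simulated data with independent normal errors, and no result here rests on that run.

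The members and lists were chosen with earlier results of these data known. Named genes were those past the F test with line means at least 4-fold apart, the 4 smallest unadjusted p-values per direction of the knockdown, those at least 1.5-fold changed within a line, the 10 with the highest means, and 30 known surface genes, 21 of them measured; other genes named beside these were chosen after their values were seen. Plasma cell, B cell, T and NK cell, myeloid and stromal markers were looked up as a check; of the B cell markers PAX5 (59.0 to 91.6), SPIB (112 to 216) and CR2 (35.8 to 229) were measured. Alternatives covered the normalization, filter, row choice, variance model, array weights, threshold, block and leaving out each line or array.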

Additional observations from a re-analysis of the deposited data

Results flagged for a closer look

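Among the named genes, 78 sets of 4 values (knockdown differences, knockdown arrays and control arrays, all log2) were searched for 1 line far from the others, and 6 were found. A chance rate of about 1 in 20 is no benchmark here. Some of these genes were named for wide spans between lines or changes within a line, and the sets of a gene are not independent. In the knockdown differences, CD27 in KMS34 stood at 0.3872, with the next line at 0.0357. On knockdown arrays, CD109 in KMS11 stood at 7.7986 (next line 5.5423), CD37 in KMS18 at 8.9652 (6.9933) and SIGLEC7 in KMS34 at 6.8439 (6.2961). On control arrays, CD44 in KMS34 stood at 7.8581 (6.3816) and CD72 in KMS11 at 5.7897 (5.4535). For CD109, CD37, SIGLEC7, CD44 and CD72 the line that stood apart was the one with the highest line mean, which includes the array that stood apart.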

How the results depend on the processing

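The count of genes that differed between lines was 40 of 55, against 8412 of all 11109 tested genes. It was 27 of 55 at a threshold of 0.01 (against 6936 of 11109) and 43 of 79 without the filter (8812 of 14812). With the filter at the 50th percentile, where fewer genes were tested, it was 25 of 26 (6528 of 7406). Over all rows it was 40 of 70 (17968 of 33472). Over all tested genes, 8351 differed with quantile normalization and 7156 to 7615 without a line. Under the other alternatives the count of antigens lay between 27 and 43. It was 34 with quantile normalization and 31 to 35 when a line was left out. Spans rest on the line that is highest or lowest: without KMS11 the CD109 span was 0.34 log2 units, without KMS18 that of CD37 0.52 and that of CD200 1.67, and without KMS34 that of CD44 0.29 (adjusted p = 0.0589), SIGLEC7 0.19 (0.208) and SIGLEC9 0.30 (0.0576). The call of CD22 was lost in 14 settings, of CD276 in 5, of CD27 in 3 and of CD72 in 2. For the knockdown the count was 0, and 1 (CD48) with eBayes using trend and robust estimation. The CD48 difference was -0.46 to -0.31 without a line in turn, with adjusted p-values of 0.0193 to 1.0 over all alternatives. With no replicate block it was -0.38 (adjusted p = 1.0). In that setting 0 of the 55 had an unadjusted p under 0.05, against 18 of all 11109 tested genes. Over all tested genes the knockdown count was 13, and 4 without the filter, 29 with trend and robust estimation, 3 with line as a random block, 0 with no replicate block, 1 to 2 without a line, 1 over all 33472 rows that passed and 1 at a threshold of 0.01; between lines it was 8412, and 17968 over all rows. Small differences changed sign: the log2 knockdown difference of CD276 was -0.0019 with quantile normalization and -0.0015 with centring on array medians, and the log2 knockdown difference of CD37 was 0.0095 with quantile normalization. Without a line in turn, the range was -0.0443 to 0.1095 for CD200, -0.0756 to 0.0754 for CD276, -0.1002 to 0.0516 for CD37, -0.013 to 0.2898 for CD38, -0.068 to 0.0547 for CD44, -0.0245 to 0.0321 for CD47, -0.0202 to 0.1175 for CD72, -0.1428 to 0.0012 for CD81, -0.0418 to 0.0719 for CD86 and -0.2316 to 0.1023 for SIGLEC7. The causes were not tested.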
